A study of Mus musculus with 12 samples.

Results

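The genes described here are 10 genes of iron storage and transport, followed across 12 RNA-seq libraries of bone marrow mesenchymal stem cell cultures. They are Fth1, Ftl1, Ncoa4, Tfrc, Steap3, Steap4, Slc11a2, Slc11a1, Slc40a1 and Lcn2, and all 10 were found by symbol among 54532 genes. The list was drawn up with the high level of Fth1 in adipogenic libraries in view, so the members were chosen by Fth1 FPKM in those libraries and by function, and values of Fth1 that involve those libraries are a description without a test. Cells came from C57BL/6 mice 4 weeks of age and were used at passage 3, after 5 days of induction. Control cells were Chd7fl/fl, that is, they carried the floxed allele without Cre. The cells labelled Chd7 KO were Prx1-cre;Chd7fl/fl, with Cre driven by a promoter of early limb mesenchyme, so cells of other origin in a culture keep Chd7. For the osteogenic groups the inducers were dexamethasone at 10 nM, β-glycerophosphate at 10 mM and ascorbic acid at 50 µM. For the adipogenic groups they were isobutylmethylxanthine at 0.5 µM, dexamethasone at 1 µM and insulin at 10 µg/ml. Each of the 4 combinations of genotype and medium had 3 libraries. The labels do not say that these came from separate mice, so p-values measure the spread between these libraries, which may be technical. Expression is given as FPKM, fragments per kilobase of gene length divided by a scaling value for each library.

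Cells take up transferrin-bound iron through the transferrin receptor, reduce it in the endosome, move it into the cytosol, and store it in the ferritin shell or send it out through ferroportin. Macrophages store iron and send it out on a large scale because they recycle it from red cells. Much of the control is after transcription. When iron is scarce, iron regulatory proteins bind a hairpin in the mRNA, the iron-responsive element, which blocks translation when it lies in the 5′ UTR and protects the message when it lies in the 3′ UTR. A level of mRNA therefore does not give the level of the ferritin or ferroportin protein.

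The hairpins are shown for members that match a strict pattern, so they do not sort all members by how iron acts on their messages. Coding transcripts of GENCODE M21 (GRCm38) were searched on the sense strand for a loop CAGTGN, closed by 5 base pairs (G with T allowed) and with an unpaired C before the stem. Of the 10 members 4 held a match in a UTR, 3 in the 5′ UTR and 1 in the 3′ UTR, against 0.142% and 0.589% of 21901 coding genes. Each site is printed 5′ to 3′ with its loop of 6 bases in capitals.
Fth1, 5′ UTR, chr19:9982732-9982761, plus strand: ttcctgcttcaaCAGTGCttgaacggaacc
Ftl1, 5′ UTR, chr7:45459778-45459807, minus strand: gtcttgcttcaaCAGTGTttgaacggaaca
Slc40a1, 5′ UTR, chr1:45925464-45925493, minus strand: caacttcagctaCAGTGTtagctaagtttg
Tfrc, 3′ UTR, chr16:32631219-32631248, plus strand: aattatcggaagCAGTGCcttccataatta
Tfrc, 3′ UTR, chr16:32631598-32631627, plus strand: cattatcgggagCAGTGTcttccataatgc
Tfrc, 3′ UTR, chr16:32631663-32631692, plus strand: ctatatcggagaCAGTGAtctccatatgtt
Tfrc, 3′ UTR, chr16:32631710-32631739, plus strand: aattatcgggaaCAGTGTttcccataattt
The ferritin and ferroportin messages thus carried a single match before the coding sequence, and Tfrc carried 4 after it. No match in the other members says only that this pattern is not in their listed transcripts.

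The libraries held 17496343 to 21099588 gene fragments each. The limma fit on log2(FPKM + 1) used all 12 libraries and the 12871 genes that reached 1 FPKM in 3 or more of them, and a gene was called at a Benjamini-Hochberg adjusted p under 0.05. Fold changes are on that scale, which understates changes of low genes. Library 2 of the adipogenic controls stood apart. Across genes its mean correlation was 0.941 with the other adipogenic controls, 0.981 with the osteogenic controls and 0.983 with the osteogenic libraries labelled knockout. Tested adipogenic values of the members, and those of the further iron genes named below for that medium, are therefore also given without it. Chd7 itself was in osteogenic medium at 2.69 ± 0.0682 FPKM (SD, n = 3) for the controls and 2.22 ± 0.166 FPKM (SD, n = 3) for the labelled knockout libraries, and at 2.10 ± 0.255 FPKM (SD, n = 3) and 2.29 ± 0.235 FPKM (SD, n = 3) in adipogenic medium. It was not lower in adipogenic medium. The floxed part of Chd7 is exon 2 and reads by exon were not analysed here, so the level of the whole gene does not show whether the deletion took place, and the libraries are named by their labels throughout.

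The cultures expressed stromal genes such as Col1a1, but the mesenchymal marker Thy1 (CD90) did not exceed 1.03 FPKM in any library. Macrophage genes were abundant in all 12 libraries. The summed level of 12 macrophage markers was 14310.5 to 14774.5 FPKM in osteogenic controls, 15831.7 to 16294.4 FPKM in osteogenic libraries labelled knockout, 9683.6 to 18938.7 FPKM in adipogenic controls and 7888.6 to 9278.5 FPKM in adipogenic libraries labelled knockout. Lyz2 alone carried most of these differences, a split made after the values were seen. It was at 5456.3 to 14412 FPKM in adipogenic controls and 3845 to 5010.3 FPKM in adipogenic libraries labelled knockout, whereas the other 11 markers summed to 4227 to 5060.2 FPKM and 4044 to 4268 FPKM. C1qa and C1qb, complement genes of macrophages, were higher in all 3 labelled knockout libraries than in any control in that medium. In adipogenic medium 2 of the 12 were higher and 7 lower in the labelled knockout libraries by limma, and in osteogenic medium 1 was higher and 2 lower. Of all genes 33.2% were called in adipogenic and 9.09% in osteogenic medium. Of 7 adipocyte markers 6, among them Adipoq and Plin1, stayed under 1 FPKM in every library, and so did 7 of 8 erythroid markers. The remaining adipocyte marker, Fabp4, was at 33.7 to 36.0 FPKM in osteogenic controls and 19.8 to 22.5 FPKM in osteogenic libraries labelled knockout. In adipogenic medium it was at 12.7 to 19.6 FPKM in control and 35.2 to 39.2 FPKM in labelled knockout libraries. The sum of 10 stromal markers was 1215.8 to 1386.7 FPKM in osteogenic controls and 1359.5 to 1508.7 FPKM in osteogenic libraries labelled knockout. It was 1576.0 to 1845.8 FPKM in adipogenic controls and 1716.2 to 1771.3 FPKM in adipogenic libraries labelled knockout. In a culture of mixed cells, fewer cells of one type and less RNA per cell cannot be told apart. The part of the macrophage level in the results below was not tested.

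**Figure D1:**
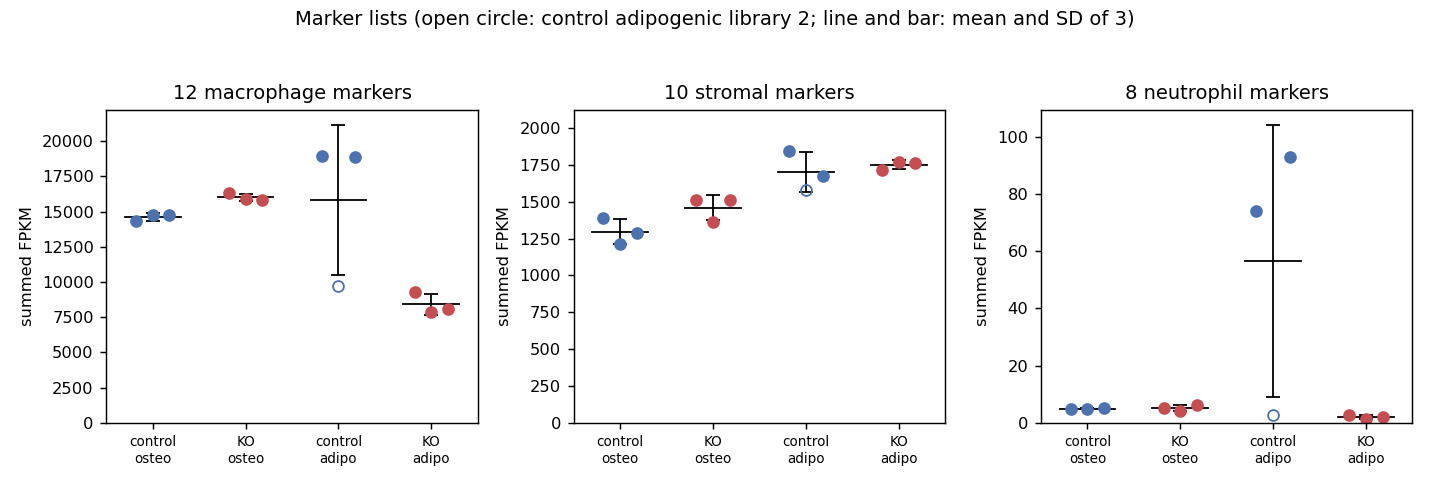
Summed FPKM of macrophage, stromal and neutrophil markers in each library by group, with the mean and SD of 3 libraries as line and bar; KO is the label Chd7 KO. In adipogenic controls, library 2 (open circle) had 9683.6 FPKM of macrophage markers against 18893.4 and 18938.7 FPKM in the other 2.

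Fth1 (chr19:9980598-9985098, plus strand of GRCm38) encodes the heavy chain of ferritin, which oxidises iron for storage. Its level in osteogenic medium was 7858, 8198 and 8757 FPKM in control and 8896, 8796 and 8757 FPKM in labelled knockout libraries. These ranges met, and the log2 difference was 0.09 (limma adjusted p = 0.903, standard error 0.300) with a 95% interval from -0.57 to 0.76. In adipogenic medium the controls gave 22380, 9510.0 and 21636 FPKM, and the labelled knockout libraries 7751, 4511 and 5097 FPKM. All 3 controls lay above all 3 labelled knockout libraries there, with control library 2 near the osteogenic level and the other 2 far above it. The log2 fold change was -1.56 with all libraries and -1.97 without control library 2. Fth1 ranked first of all genes in 3 of the 12 libraries, all of them adipogenic, and drew 6.66%, 3.27% and 6.52% of all fragments on genes in the adipogenic controls. In the adipogenic libraries labelled knockout this share was 2.67%, 1.57% and 1.77%, and in the 6 osteogenic libraries it lay between 2.62% and 2.97%. The order of the group means was adipogenic control, osteogenic labelled knockout, osteogenic control and adipogenic labelled knockout, and only the 2 osteogenic groups overlapped as neighbours in it.

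Ftl1 (chr7:45457944-45459884, minus strand of GRCm38) encodes the light chain, which helps form the iron core. It was at 3265, 3398 and 2983 FPKM in osteogenic controls, 3355, 3536 and 3426 FPKM in osteogenic libraries labelled knockout, 3039, 3593 and 3349 FPKM in adipogenic controls and 2270.2, 2070.4 and 2257 FPKM in adipogenic libraries labelled knockout. The last group lay below the other 9 libraries, which overlapped one another. In adipogenic medium Ftl1 fell by 0.59 on the log2 scale in the labelled knockout libraries (standard error 0.0756, limma adjusted p = 0.000344), and by 0.54 without control library 2. Without a filter on low genes its limma adjusted p was 0.0560. In osteogenic medium the difference was 0.10 (95% interval -0.07 to 0.27, limma adjusted p = 0.496). Fragments of Ftl1 could be shared with near-identical copies, of which Ftl1-ps1 was the highest at 56.6 to 94.9 FPKM, so that its level is uncertain by about that much.

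The ratio of Fth1 to Ftl1 in FPKM was 7.36 and 6.46 in adipogenic control libraries 1 and 3, and 2.65 in library 2. In the other 9 libraries it lay between 2.18 and 3.41. The excess of Fth1 in 2 of the adipogenic controls was thus not shared by Ftl1. Lengths are those of all annotated exons, 3469 bases for Fth1 and 1340 bases for Ftl1. The main coding transcripts are 929 and 968 bases long, so the ratio of molecules is higher than the ratio of FPKM by a factor that is the same in every library if the same transcripts are used.

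**Figure D2:**
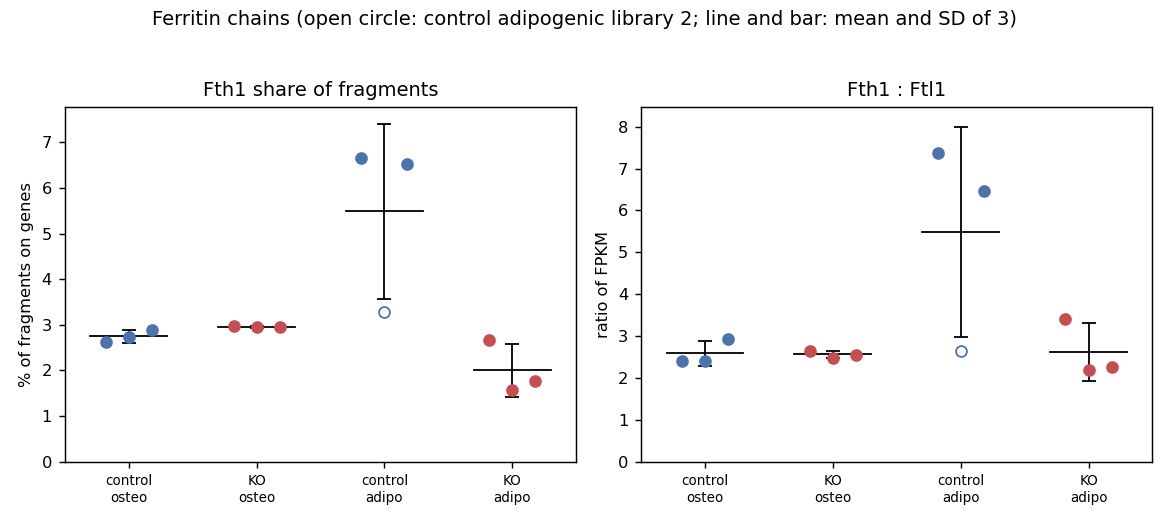
Share of fragments on genes that fell on Fth1 (%, left) and the ratio of Fth1 to Ftl1 FPKM (right) in each library, with the mean and SD of 3 libraries; KO is the label Chd7 KO and the open circle is adipogenic control library 2. Adipogenic control libraries 1 and 3 stand alone at ratios of 7.36 and 6.46.

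Ncoa4 (chr14:32159865-32179855, plus strand of GRCm38), the receptor that carries ferritin to the lysosome for iron release, changed little. It was at 10.5, 10.2 and 10.3 FPKM in osteogenic controls, 9.54, 10.7 and 10.3 FPKM in osteogenic libraries labelled knockout, 9.33, 10.1 and 10.3 FPKM in adipogenic controls and 9.23, 8.18 and 7.73 FPKM in adipogenic libraries labelled knockout. Only the last group stood below its neighbours. The log2 fold change in adipogenic medium was -0.22 (standard error 0.0652, limma adjusted p = 0.0269), a call that was lost when library 3 of the controls (limma adjusted p = 0.0860), library 2 of the labelled knockout group (limma adjusted p = 0.0801) or its library 3 (limma adjusted p = 0.104) was left out. The limma adjusted p lay between 0.00782 and 0.104 when each of the 6 adipogenic libraries was left out in turn. Without control library 2 the change was -0.21 (limma adjusted p = 0.0363). When libraries were rescaled to the same sum of FPKM (TPM), the change was -0.05 (limma adjusted p = 0.706).

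Tfrc (chr16:32608920-32632794, plus strand of GRCm38) encodes the transferrin receptor, the main route of iron uptake, and its message is one of those that iron regulatory proteins protect. In osteogenic medium it was at 57.1, 59.8 and 52.7 FPKM in control and 89.5, 98.2 and 92.4 FPKM in labelled knockout libraries. In adipogenic medium it was at 42.5, 79.5 and 45.7 FPKM in control and 38.8, 34.1 and 32.9 FPKM in labelled knockout libraries. The genotypes did not overlap in either medium, with the labelled knockout libraries above the controls in osteogenic and below them in adipogenic medium. The log2 fold change was 0.71 in osteogenic medium (standard error 0.189, limma adjusted p = 0.0428) and -0.60 in adipogenic medium (standard error 0.189, limma adjusted p = 0.0350). The osteogenic change kept its size but not its call when any 1 of the 6 osteogenic libraries was left out, with log2 values of 0.67 to 0.76 and limma adjusted p of 0.10 to 0.131. With adipogenic control library 2 removed from the shared estimate of spread, the limma adjusted p of the same change was 0.000152. Over the other 8 settings tried it lay between 0.000372 (only the 6 osteogenic libraries fitted) and 0.158 (TPM). The adipogenic change was -0.32 without control library 2 (limma adjusted p = 0.00698), where Tfrc was highest of the 3 controls in the library left out. It lost its call without library 2 (limma adjusted p = 0.0921) or library 3 (limma adjusted p = 0.106) of the labelled knockout group. The highest correlations of Tfrc over the 12 libraries were with Cenpf, Cenpn and Prc1, 3 genes of cell division, at Pearson's r of 0.975, 0.970 and 0.968.

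Steap3 (chr1:120190757-120272705, minus strand of GRCm38), the main endosomal ferrireductase of erythroid cells, was at 9.50, 8.08 and 8.89 FPKM in osteogenic controls and 7.33, 7.19 and 6.30 FPKM in osteogenic libraries labelled knockout. The groups did not overlap, but the difference of -0.31 on the log2 scale had a limma adjusted p of 0.154 (95% interval -0.57 to -0.04). With adipogenic control library 2 out of the shared estimate of spread the limma adjusted p was 0.0118, and with only the 6 osteogenic libraries fitted it was 0.0232. In adipogenic medium it was at 6.31, 8.62 and 5.64 FPKM in control and 5.47, 5.79 and 5.65 FPKM in labelled knockout libraries, which overlapped (limma adjusted p = 0.172, and 0.479 without control library 2). Steap4 (chr5:7960457-7982213, plus strand of GRCm38), a related reductase known from adipose tissue and inflammation, was close to 0 in most libraries and did not pass the filter. In adipogenic controls it drew 76, 2 and 83 fragments and in adipogenic libraries labelled knockout 22, 0 and 2. In osteogenic medium it drew 2, 0 and 1 fragments in control and 2, 0 and 2 in labelled knockout libraries. It was therefore detected above a few fragments in only 3 libraries, adipogenic control libraries 1 and 3 and the labelled knockout library 1.

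Slc11a2 (chr15:100387898-100425072, minus strand of GRCm38) encodes DMT1, which moves ferrous iron out of the endosome. It was at 14.3, 12.9 and 13.7 FPKM in osteogenic controls and 15.7, 15.2 and 15.8 FPKM in osteogenic libraries labelled knockout, groups that did not overlap but whose difference of 0.18 did not pass the test (95% interval -0.76 to 1.12, limma adjusted p = 0.858). With only the 6 osteogenic libraries fitted its limma adjusted p was 0.0249. In adipogenic medium the values spread far more, at 43.0, 16.2 and 43.4 FPKM in control and 30.2, 10.1 and 10.8 FPKM in labelled knockout libraries. Control library 2 lay below labelled knockout library 1, so the groups overlapped. The log2 fold change of -1.01 had a limma adjusted p of 0.0893. Without control library 2 it was -1.47 (limma adjusted p = 0.00644), and without labelled knockout library 1 it was -1.50 (limma adjusted p = 0.0116). It passed in those 2 of the 6 fits that left out 1 library, and over all 6 the limma adjusted p lay between 0.00644 and 0.260.

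Slc11a1 (chr1:74375195-74386062, plus strand of GRCm38) encodes NRAMP1, which pumps metal ions out of the phagosome and is a macrophage gene. In osteogenic medium it was at 124.0, 129.1 and 120.5 FPKM in control and 120.6, 119.4 and 113.9 FPKM in labelled knockout libraries, which overlapped (log2 difference -0.08, 95% interval -0.74 to 0.59, limma adjusted p = 0.922). In adipogenic medium the controls gave 236, 122 and 224 FPKM and the labelled knockout libraries 76.9, 34.7 and 37.1 FPKM. No labelled knockout library reached any control. Slc11a1 fell by 1.99 on the log2 scale (standard error 0.299, limma adjusted p = 0.000868), the largest fall among the members tested, and by 2.29 without control library 2. The macrophage marker sum, with Lyz2 as its largest part, was also lower in all 3 of these libraries than in any adipogenic control. By limma 7 of the 12 markers were lower there and 2 higher, where 16.5% of all genes were called lower. C1qa and C1qb lay above every adipogenic control.

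Slc40a1 (chr1:45908068-45926523, minus strand of GRCm38) encodes ferroportin, the only known iron exporter of mammals. In osteogenic medium it was at 25.0, 28.8 and 24.6 FPKM in control and 27.2, 29.4 and 26.4 FPKM in labelled knockout libraries, which overlapped (log2 difference 0.08, 95% interval -0.47 to 0.64, limma adjusted p = 0.895). In adipogenic medium it was at 12.9, 27.4 and 13.2 FPKM in control and 3.86, 6.42 and 5.72 FPKM in labelled knockout libraries. Every adipogenic library except control library 2 lay below every osteogenic library. The log2 fold change between genotypes was -1.51 in adipogenic medium (standard error 0.250, limma adjusted p = 0.00152) and -1.17 without control library 2 (limma adjusted p = 0.000138). Slc40a1 thus ran opposite to Fth1 and Slc11a1 between media in the controls: in adipogenic control libraries 1 and 3 Fth1 and Slc11a1 were above the osteogenic controls and Slc40a1 below them.

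Lcn2 (chr2:32384633-32388252, minus strand of GRCm38) encodes lipocalin 2, a secreted protein that binds bacterial siderophores. It drew 3, 0 and 1 fragments in osteogenic controls and 0, 1 and 0 in osteogenic libraries labelled knockout. In adipogenic medium it drew 464, 2 and 371 fragments in control (10.8, 0.0364 and 8.73 FPKM) and 118, 12 and 11 in labelled knockout libraries (2.40, 0.243 and 0.221 FPKM). Summed over groups, the rate of fragments in adipogenic was 206 times that in osteogenic controls. This ratio is a description and rests on adipogenic control libraries 1 and 3, since library 2 drew 2 fragments. Lcn2 passed the filter only through adipogenic libraries, where it was high, so it was given no test and was left out of every count and median of the members. Within adipogenic medium the summed rate in the labelled knockout libraries was 0.159 times that in controls, also as a description, and control library 2 lay below all 3 labelled knockout libraries. Of 8 neutrophil markers, a cell type known for Lcn2, S100a8 was at 65.8 and 86.0 FPKM in adipogenic control libraries 1 and 3 and at most 6.01 FPKM elsewhere, Camp was at 8.03 and 7.08 FPKM in the same 2 and under 1 FPKM elsewhere, whereas S100a9 was at 0 in all 12 libraries and Ngp, Mpo, Elane, Ly6g and Retnlg stayed under 1 FPKM. The summed level of these markers was 4.66 to 5.22 FPKM in osteogenic controls, 4.04 to 6.35 FPKM in osteogenic libraries labelled knockout, 2.66 to 93.1 FPKM in adipogenic controls and 1.36 to 2.56 FPKM in adipogenic libraries labelled knockout, and their part in the level of Lcn2 was not tested.

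**Figure D3:**
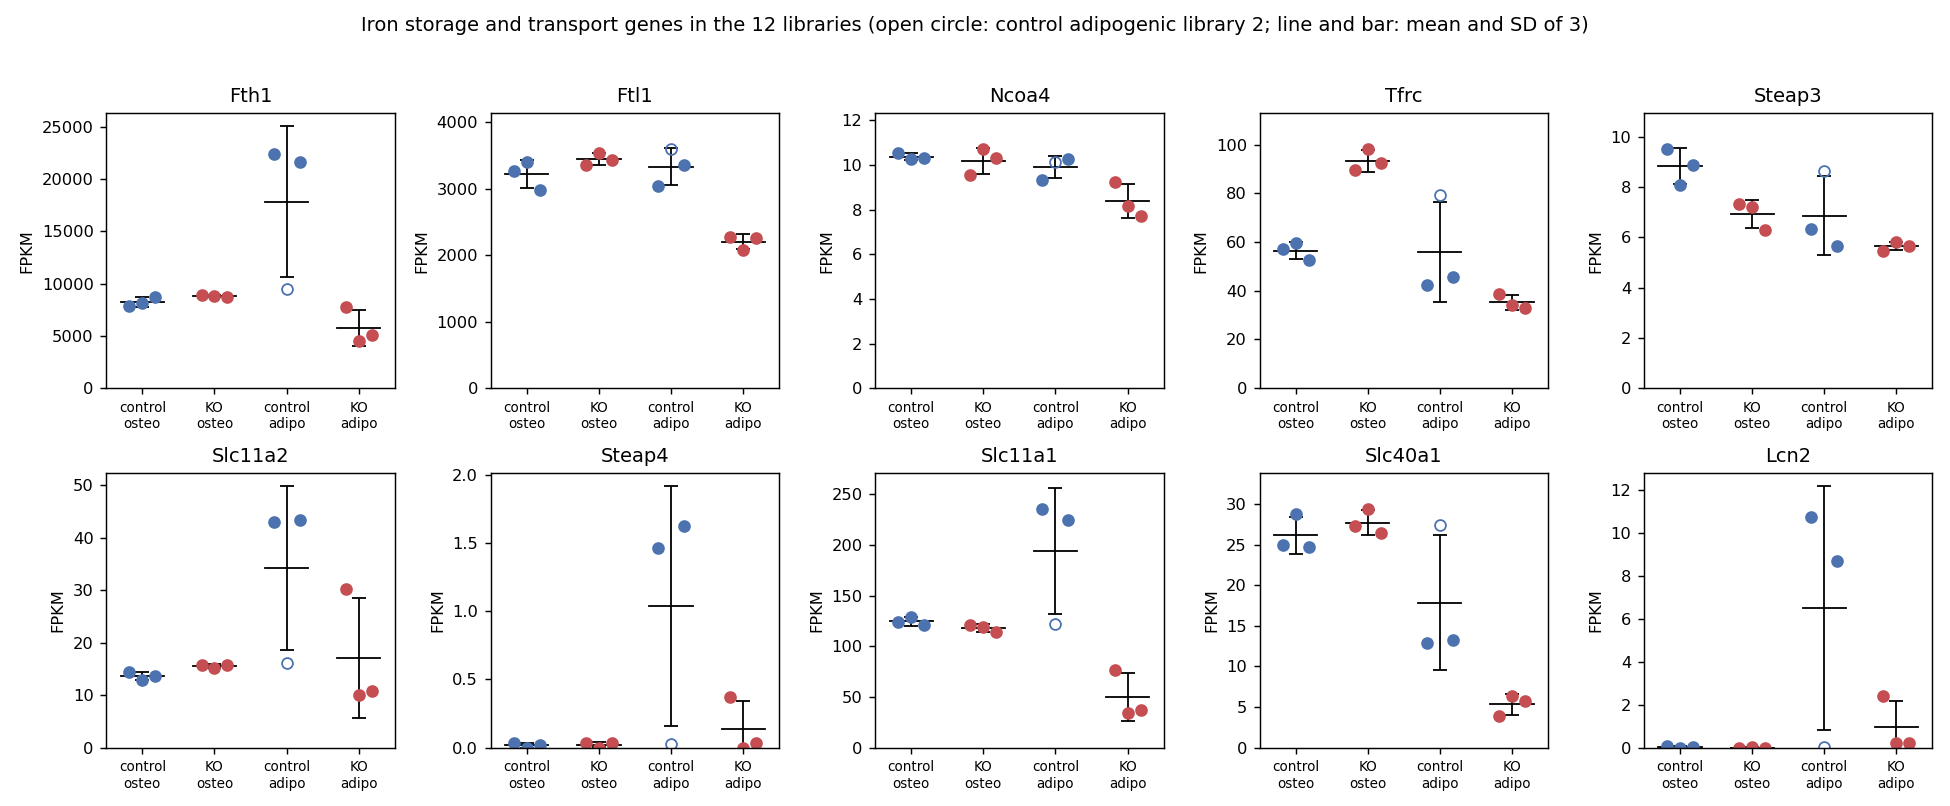
FPKM of each of the 10 genes in every library by group, with the mean and SD of 3 libraries as line and bar; KO is the label Chd7 KO. The open circle, adipogenic control library 2, lies near the osteogenic libraries for Fth1 (9510.0 FPKM), Slc40a1 (27.4 FPKM) and Slc11a1 (122 FPKM).

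The genotypes were compared in each medium to see which iron genes depend on the Chd7 genotype. In osteogenic medium 1 of the 8 members tested was called, Tfrc, which was higher in labelled knockout libraries. Over all genes tested 9.09% were called and 4.94% were called higher. The median log2 fold change of the members was 0.09 against -0.01 for all genes. The groups did not overlap for 3 of the 8 members, against 44.3% of all genes. Without adipogenic control library 2 in the shared spread 2 of the 8 passed, Tfrc and Steap3, with a background of 22.2%.

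In adipogenic medium, with Fth1 and Lcn2 left out, 5 of the 7 members tested were lower in labelled knockout libraries (Ftl1, Ncoa4, Tfrc, Slc11a1 and Slc40a1) and none was higher, where 33.2% of all genes were called and 16.5% were called lower. The 2 that did not pass were Steap3 and Slc11a2. The groups did not overlap for 5 of these 7, against 38.6% of all genes, and their median was -0.60 against -0.01 for all genes. Without control library 2 the count was 6 of 7, with Slc11a2 added and 51.0% of all genes called. Leaving out library 2 or library 3 of the labelled knockout group left 3 of 7. Over the 6 fits that left out 1 library, 2791 to 6569 of all genes were called, against 4276 with all libraries. Rescaling to TPM moved the median of all genes from -0.01 to 0.14 and left 3 of the 7 called. Over the 8 other settings, TPM among them, 1671 to 4276 of all genes were called. A loss of member calls in these fits was not set apart from a general loss of calls.

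**Figure D4:**
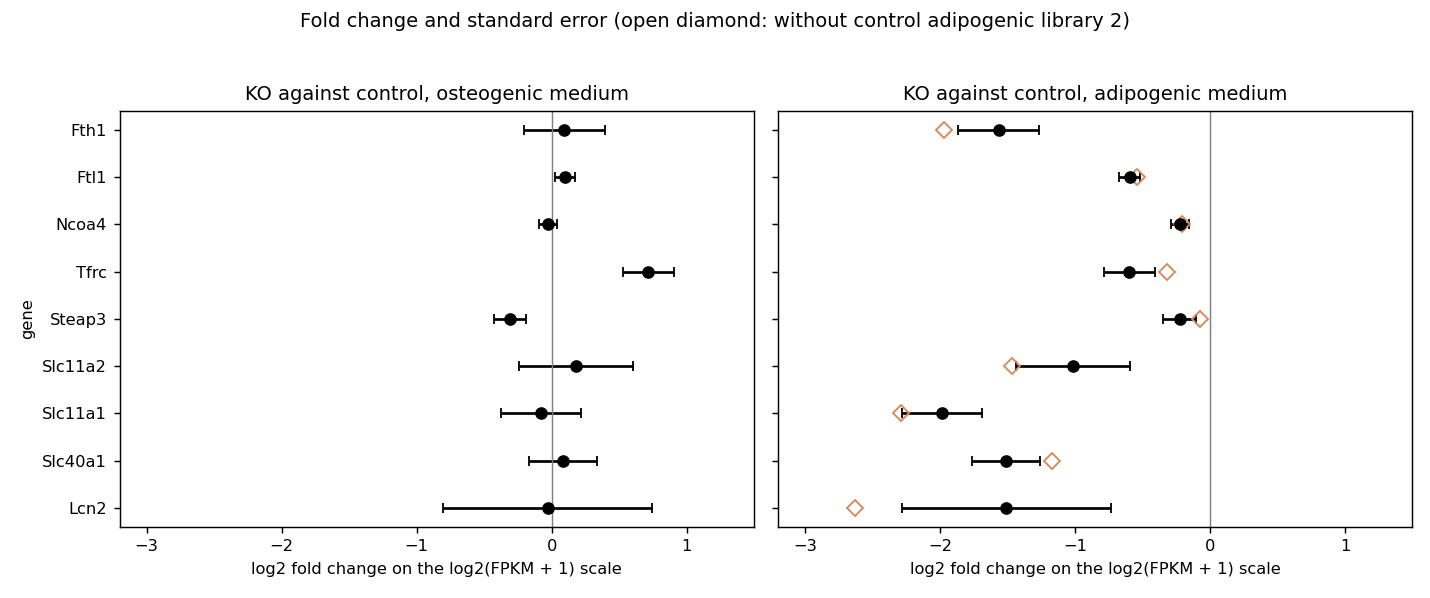
Log2 fold change of the libraries labelled KO against control with its standard error, in osteogenic (left) and adipogenic medium (right), for the 9 genes that passed the filter; open diamonds omit adipogenic control library 2. The adipogenic points all lie below 0, from -0.22 for Ncoa4 to -1.99 for Slc11a1, and Fth1 (adipogenic) and Lcn2 are shown as a description without a test.

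The difference between the genotype effects of the media was tested as an interaction. It passed for 4 of the 7 members, all with the more negative effect in adipogenic medium, where 20.4% of all genes passed and 9.58% passed in that direction. The log2 difference was -1.91 for Slc11a1 (standard error 0.422, limma adjusted p = 0.0114), -1.59 for Slc40a1 (standard error 0.354, limma adjusted p = 0.0115), -1.31 for Tfrc (standard error 0.267, limma adjusted p = 0.00765) and -0.69 for Ftl1 (standard error 0.107, limma adjusted p = 0.00177). For Tfrc it joined effects of opposite sign. Without adipogenic control library 2 the count was 5 of 7, Slc11a2 added at -1.65 (limma adjusted p = 0.0195), with 42.2% of all genes passing. In that fit the log2 difference was -2.21 for Slc11a1, -1.25 for Slc40a1, -1.03 for Tfrc and -0.64 for Ftl1. The interaction of Ftl1 lost its call without a filter on low genes (limma adjusted p = 0.149) and with TPM (limma adjusted p = 0.0744).

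Media were compared within each genotype, which tests the response of the iron genes to adipogenic against osteogenic medium. In controls none of the 7 members passed in limma, or with limma voom on recovered fragments, while 3 had an unadjusted p under 0.05 and 22.8% of all genes were called. The media did not overlap for 1 of these 7, against 34.4% of all genes. Without control library 2 there were 5 of 7 and a background of 47.8%. In that fit Slc11a2 was higher by 1.60 (limma adjusted p = 0.00441) and Slc11a1 by 0.88 (limma adjusted p = 0.0206). Slc40a1 fell by 0.95 (limma adjusted p = 0.000580), Steap3 by 0.49 (limma adjusted p = 0.000548) and Tfrc by 0.35 (limma adjusted p = 0.00444). These 5 calls rest on leaving out that one library, since the limma adjusted p with all libraries lay between 0.0659 and 0.813 for the same genes. The mean Fth1 of adipogenic control libraries 1 and 3 was 2.66 times that of the osteogenic controls.

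In labelled knockout cells 5 of the 7 members were lower in adipogenic than in osteogenic medium, where 27.9% of all genes were called and 14.0% were called lower. Slc40a1 fell by 2.20 (standard error 0.250, limma adjusted p = 0.000198), Tfrc by 1.38 (standard error 0.189, limma adjusted p = 0.000586), Slc11a1 by 1.33 (standard error 0.299, limma adjusted p = 0.00838), Ftl1 by 0.65 (standard error 0.0756, limma adjusted p = 0.000230) and Ncoa4 by 0.26 (standard error 0.0652, limma adjusted p = 0.0156). Fth1 was lower in all 3 adipogenic than in all 3 osteogenic libraries, at a mean of 5786 ± 1726 FPKM (SD, n = 3) against 8816 ± 71.9 FPKM (SD, n = 3). The media did not overlap for 6 of the 7, against 52.5% of all genes. Slc11a2 differed by -0.05 (95% interval -0.99 to 0.88). Leaving out library 2 or 3 of the osteogenic group, or library 2 or 3 of the adipogenic group, ended the call of Ncoa4, with limma adjusted p of 0.0508 to 0.0641. With adipogenic control library 2 out of the shared spread 6 of 7 passed, Steap3 added, with a background of 42.5%. The 2 comparisons of media each share their libraries with the comparisons of genotypes, so their values are not independent of those above.

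A list of 53 further genes of iron and heme metabolism was followed beside the members. Of these 52 were in the table and 41 were tested. Hepcidin (Hamp), the liver hormone that acts on ferroportin, did not exceed 0.257 FPKM. In osteogenic medium 2 were higher and 2 lower in labelled knockout libraries, 9.76% of the list against 9.09% of all genes. Tfr2, the second transferrin receptor, was higher by 0.73 (limma adjusted p = 0.0230, standard error 0.167) and Alad, an enzyme of heme synthesis, by 0.69 (standard error 0.146, limma adjusted p = 0.0170). Cd163, the macrophage receptor for hemoglobin bound to haptoglobin, was at 7.98, 8.18 and 7.46 FPKM in control and 1.44, 1.52 and 1.35 FPKM in labelled knockout libraries, a fall by 1.87 (standard error 0.165, limma adjusted p = 0.000158).

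In adipogenic medium 4 of the 41 were higher and 9 lower in labelled knockout libraries, which is 31.7% of the list against 33.2% of all genes. Without control library 2 there were 21, or 51.2% against 51.0%. The list as a whole was thus at the background in both fits. Of the 9 heme handling genes tested 1 was higher and 4 were lower. Blvrb, which reduces biliverdin, was at 108, 55.8 and 103 FPKM in control and 22.6, 16.2 and 15.5 FPKM in labelled knockout libraries, and fell by 2.20 (standard error 0.222, limma adjusted p = 8.5e-05). Hmox1, the heme oxygenase that frees iron from heme, was at 2208, 565 and 2237 FPKM in control and 532, 389 and 443 FPKM in labelled knockout libraries (a log2 difference of -1.64, limma adjusted p = 0.0149, standard error 0.424). Slc48a1, the transporter that moves heme out of the lysosome, fell by 1.18 (standard error 0.158, limma adjusted p = 0.000463). Cd163 went the other way, with 2.45, 1.30 and 2.84 FPKM in control and 3.34, 4.53 and 4.41 FPKM in labelled knockout libraries (a log2 difference of 0.70, limma adjusted p = 0.00990, standard error 0.165). Glrx5, of iron-sulfur cluster assembly, was higher by 0.59 (limma adjusted p = 0.00101) and the prion protein gene Prnp by 0.41 (limma adjusted p = 0.000628). All 6 genes kept their direction and call without control library 2, where the log2 difference was -2.50 for Blvrb, -2.30 for Hmox1, -1.32 for Slc48a1, 0.48 for Cd163, 0.71 for Glrx5 and 0.42 for Prnp. The largest move was that of Hmox1, whose control library 2 lay near the osteogenic level.

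**Figure D5:**
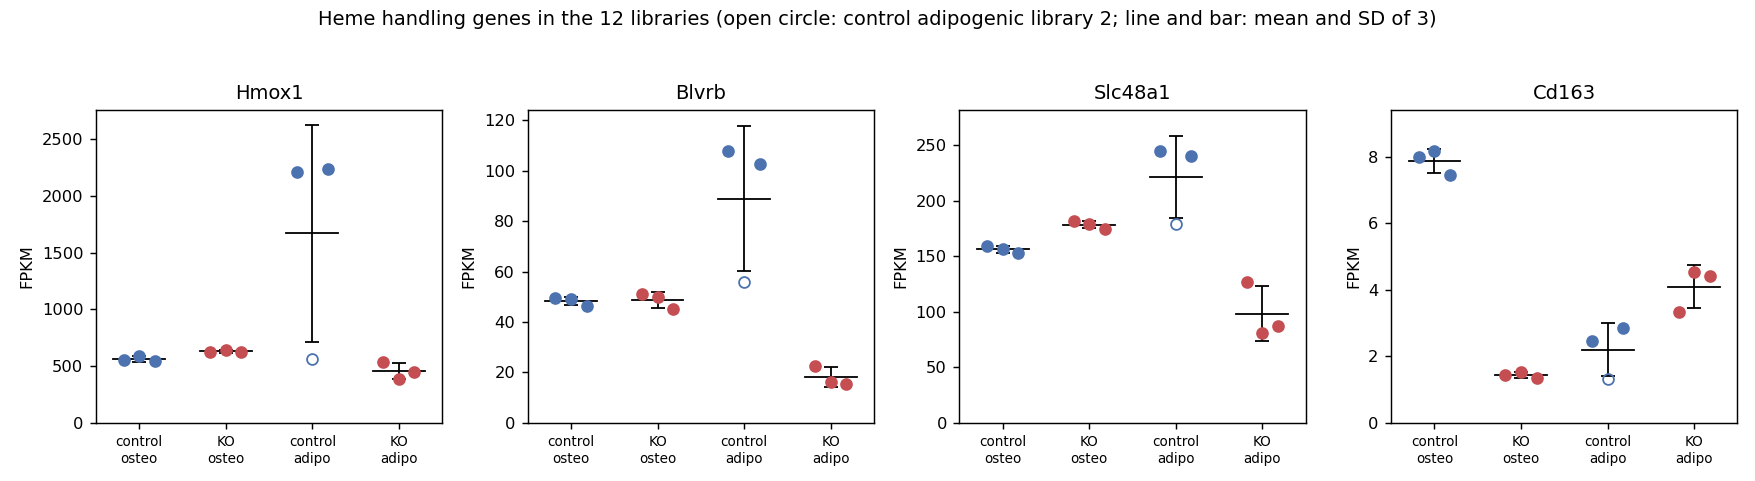
FPKM of 4 heme handling genes in every library by group, with the mean and SD of 3 libraries; KO is the label Chd7 KO. Hmox1 reached 2208 and 2237 FPKM in adipogenic control libraries 1 and 3 and 565 FPKM in library 2 (open circle), and Cd163 was lower in labelled knockout libraries in osteogenic but higher in adipogenic medium.

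By role, 1 of 5 genes of iron regulatory proteins and chaperones was called in adipogenic medium, Pcbp1, where 33.2% of all genes were called. Aco1 and Ireb2, the iron regulatory proteins themselves, did not pass there with all libraries. Without control library 2, 3 of the 5 were called, where 51.0% of all genes were. Ireb2 was among them at a log2 difference of -0.25 (limma adjusted p = 0.00337), and Aco1 was not (limma adjusted p = 0.729). With all libraries, 1 of 8 genes of the mitochondrial group was higher and 3 were lower, and of heme synthesis 2 of 8 were lower. In that fit 33.2% of all genes were called and 16.5% were called lower. Without control library 2 the calls were 4 of 8 and 3 of 8, where 51.0% of all genes were called. The interaction passed for 6 of the 41 (14.6% against 20.4% of all genes), 3 in each direction, among them Cd163 at 2.56 (standard error 0.233, limma adjusted p = 8.8e-05) and Blvrb at -2.21 (standard error 0.314, limma adjusted p = 0.00114). For the interaction these genes were named after their values were seen. Without adipogenic control library 2 the interaction passed for 20 of the 41 (48.8% against 42.2% of all genes). In that fit it was 2.34 for Cd163 and -2.51 for Blvrb. Between media, 4 were higher and 8 lower in adipogenic controls (29.3% against 22.8% of all genes). The named ones were Blvrb (0.81), Slc25a37 (0.77), Steap2 (0.39), Cd163 (-1.50), Hfe (-0.74) and Trf (-0.68). Without control library 2, 25 of the 41 were called (61% against 47.8% of all genes). The named genes were then at 1.11, 1.10, 0.48, -1.28, -0.92 and -0.84 in the same order. In labelled knockout cells 3 were higher and 11 lower (34.1% against 27.9% of all genes), and those named were Cd163 (1.06), Glrx5 (0.34), Pcbp1 (0.25), Blvrb (-1.40), Trf (-0.89) and Slc48a1 (-0.88), all as log2 fold changes.

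The genes whose log2 levels followed each member most closely over the 12 libraries were listed as a description. The libraries share a group structure of 4 groups and library 2 of the adipogenic controls, and r rests on both. For Fth1 they were Neurl3, Tgfb1 and Cyb5a (r of 0.992, 0.990 and 0.989). For Slc11a2 they were Tnf, Ralgds and Gpr84 (0.991, 0.989 and 0.988). For Slc11a1 they were Slc48a1, Gsta3 and Abr (0.982, 0.982 and 0.981), the first of which is itself on the list of further iron genes. For Slc40a1 they were Lrp8, Arl4c and Rabl6 (0.994, 0.989 and 0.989), and for Lcn2 Glrx, Gm15675 and Cd55 (0.996, 0.996 and 0.996). Ftl1 was most like Pdlim4, Fam3c and Nasp (0.969, 0.964 and 0.964), Ncoa4 was most like Slc35a3, Zmym1 and Fam219a (0.934, 0.933 and 0.930), and Steap3 was most like Nfya, Cacna1a and Nostrin (0.960, 0.949 and 0.944).

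Promoters of the members were searched for a motif of C/EBP factors, known from adipogenesis and from myeloid cells. In the 250 bases before the start sites of 32851 RefSeq promoters (GRCm38.p6), TTGCNNAA on either strand was present in 9.56%. Promoters were found for 8 of the 10 members (none for Slc40a1 and Slc11a2), 15 windows in all, and 4 of the 15 windows held the motif, 1 each of Fth1, Lcn2, Steap4 and Steap3. The matches are shown with the motif in capitals and its position from the start site.
Fth1, -129, chr19:9982506-9982535, plus strand: aggcaccgctcTTGCAGAAgctcagagccc
Fth1, -58, chr19:9982577-9982606, plus strand: gccctgcgggtTTGGGCAAcacgcccacag
Lcn2, -216, chr2:32387937-32387966, minus strand: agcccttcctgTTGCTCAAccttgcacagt
Steap4, -87, chr5:7960374-7960403, plus strand: cacagctcctcTTGCGAAAtcaagcgggcc
Steap3, -223, chr1:120270475-120270504, minus strand: tctccccctccTTTTGCAAggccaagtctc
The core of the antioxidant response element, TGACNNNGC, was present in 10.2% of all promoters and in 1 of the 15 windows, of Ncoa4. The core of the NF-kB motif was present in 45.8% of all promoters and in 12 of the 15 windows, which belong to 7 of the 8 members. Some members had more than 1 window, and windows of Tfrc and of Ncoa4 overlap. The windows are thus not independent, and an enrichment was not tested. A match is a run of letters, and binding was not measured here.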

How the data were processed

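RNA was sequenced from 12 libraries, 3 for each genotype and medium. The authors deposited a table of FPKM per gene and library. The paper names FastQC, the FASTX toolkit, HISAT2 and Ballgown, whereas the submitters' processing notes name Bowtie 0.12.2 and mm9. The annotation, the strand setting and any filter are not given in the sources used here. Gene positions and lengths come from GENCODE M21 (GRCm38), and promoters from RefSeq (GRCm38.p6).

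The table lists 54532 genes, of which 30520 were above 0 in at least 1 library. The 12871 genes that reached 1 FPKM in 3 or more libraries were tested on log2(FPKM + 1) with limma 3.58.1 (R 4.3.3, trend, 4 group means over all 12 libraries), with p adjusted by Benjamini-Hochberg over all of them and a threshold of 0.05. Whole fragments were recovered from the low values, 98.2 to 98.4% of which were whole within 0.02 (4% by chance), and gave totals of 17496343 to 21099588 per library and a limma voom alternative. Ratios of summed Lcn2 fragments are a description and were given no interval. The step was tested on simulated data for the osteogenic comparison over 12871 genes, where it called 99 of 100 genes changed by 1 and 62 of 100 changed by 0.5 on the log2 scale, with 7 false calls. The simulation gave every gene the same small spread and held no library that stood apart. Changes were placed only in genes above a minimum of fragments. These rates therefore check the code and do not give the power of the test in the real libraries.

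Further iron genes were named as up to 3 with the largest called change in each direction whose groups did not overlap. Of these, 1 gene is not reported here. The members, gene lists and tests were chosen with earlier results of these data known. Fth1 was given no p in comparisons with adipogenic libraries, and Lcn2 none in any, since it passed the filter only where it was high. For the same reason Tfr2 is described without a p, but it stays in the counts of its list. Alternatives were another pseudocount, no filter, TPM, median ratio scaling, no trend, fitting only the libraries compared, a replicate block, voom and leaving out each library. The median ratio of the deposited FPKM was already 1.0010 to 1.0012 in every library. Median ratio scaling could therefore hardly differ from the main fit and is no check of it. Leaving adipogenic control library 2 out of the shared spread was chosen after seeing the data.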

Additional observations from a re-analysis of the deposited data

Results flagged for a closer look

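Among the members, 4 had genotype effects that differed between the media by the interaction term of limma. The difference, adipogenic minus osteogenic effect on the log2 scale, was -0.69 for Ftl1, -1.31 for Tfrc, -1.91 for Slc11a1 and -1.59 for Slc40a1. For Tfrc, labelled knockout libraries lay above the controls in osteogenic and below them in adipogenic medium, in all 3 libraries of each group. Fth1 is not among them because its adipogenic values were used to choose the genes.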

How the results depend on the processing

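Of 554 tested member values recomputed under the alternatives, 508 kept their side of the threshold, 31 lost a call and 15 gained one. These counts include median ratio scaling, which could hardly differ from the main fit. Among the 508, 10 changed sign, all of them uncalled in both fits, and 0 called values reversed. The 139 values of Fth1 and Lcn2 without a test kept their sign. Calls lost were mostly of Ncoa4 and Tfrc, and Slc11a1 and Slc40a1 kept their adipogenic calls in every fit. The cause of these changes was not tested. In osteogenic medium the main count was 1170 of all genes and 1 member. TPM gave 526 and 0, only the libraries compared 3418 and 3, a shared spread that omits the second adipogenic control 2854 and 2, no filter 0 members, and leaving out 1 library 532 to 670 genes and 0 members. In adipogenic medium the main counts were 4276 genes and 5 members. Only the libraries compared gave 1671 and 3, no filter 2 members, TPM 3 members, and leaving out 1 library 2791 to 6569 genes and 3 to 6 members. The interaction (2630 genes, 4 members) gave 1798 to 5434 genes and 4 to 5 members without 1 library. Between media, controls had 2935 genes, 490 with only the libraries compared and 1361 to 6156 genes and 0 to 5 members without 1 library, while labelled knockout cells had 3592 genes, 5466 with the shared spread without adipogenic control library 2 and 2500 to 2864 without 1 library.

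In the fit with a replicate block the osteogenic comparison gave 744 genes and 0 members, the adipogenic 3889 and 4, the interaction 2176 and 4, and the media 1943 genes in controls and 2882 genes and 4 members in labelled knockout cells. Same-numbered libraries of the 2 genotypes had correlations of their deviations of 0.466, 0.397 and -0.286 in adipogenic and -0.038, 0.058 and -0.030 in osteogenic medium. Not every library correlated best with its own number. With 3 libraries per group and adipogenic control library 2 standing apart, these values cannot settle whether same-numbered libraries belong together.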
